A study of Mus musculus with 6 samples.

Results

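The 10 miRNAs described here, mir-673, mir-493, mir-337, mir-540, mir-665, mir-431, mir-433, mir-127, mir-434 and mir-136, lie between the noncoding gene Meg3 and the far end of Rtl1 in the Dlk1-Dio3 imprinted domain of the mouse. They were chosen by name and position, and all 10 were among the 898 miRNA genes of the deposited table. Small RNA had been sequenced from 3 libraries of E14Tg2a embryonic stem cells (ESCs), a cultured mouse line kept pluripotent with leukemia inhibitory factor (LIF), and from 3 libraries of neuronal cells (NCs). The NCs were monolayers of the same line, grown in LIF-free medium that held 1 µM of retinoic acid (RA), for 48 h. Both groups came from 1 cell line, and the RNA of each replicate was processed separately. The p-values therefore measured the spread between replicate libraries of this line only. Those with a covariate, described below, measured only a part of that spread.

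miRNAs are short RNAs that are cut from hairpin precursors and guide Argonaute proteins to messenger RNAs, mainly by pairing through the seed, bases 2 to 8. In the Dlk1-Dio3 domain, the noncoding RNAs and miRNAs are expressed from the maternal chromosome, and the protein-coding genes Dlk1, Rtl1 and Dio3 from the paternal one. Rtl1 is a gene derived from a retrotransposon and is required in the placenta, and the miRNAs encoded on its opposite strand match its message in full and can direct its cleavage. Expression of the maternal noncoding RNAs of this domain is also known as a mark of mouse stem cell lines with full developmental potency.

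The name given to the group, antisense to Rtl1, held for 5 of the 10 members by annotation. On GRCm38 (mm10), all 10 hairpins lay on the plus strand of chromosome 12 within 23.4 kb, at chr12:109571990-109595388. Meg3 ended before the first of them, at position 109571726. The hairpins of mir-673 (chr12:109571990-109572080), mir-493 (chr12:109580233-109580315), mir-337 (chr12:109585789-109585885), mir-540 (chr12:109586080-109586146) and mir-665 (chr12:109586314-109586407) overlapped no part of Rtl1. They are called the interval miRNAs here. The hairpins of mir-431 (chr12:109590447-109590537), mir-433 (chr12:109591715-109591838), mir-127 (chr12:109592846-109592915), mir-434 (chr12:109594506-109594599) and mir-136 (chr12:109595327-109595388) lay inside the coding exon of Rtl1, which is on the minus strand at chr12:109589193-109600330. These 5 are called the antisense miRNAs.

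The mature sequences of the 6 members on which the results turn are shown 5′ to 3′ from RefSeq (GRCm38.p6), with the seed in capitals. The first 4 miRNAs are those called lower in NCs, with an adjusted p under 0.05, in at least 1 of the fits described here, and mir-431 and mir-434 are abundant neighbours that were not called. The table gave 1 value per miRNA gene, so the 5p and 3p products could not be told apart in the data.
miR-673-5p: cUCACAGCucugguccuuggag
miR-673-3p: uCCGGGGCugaguucugugcacc
miR-540-5p: cAAGGGUCacccucugacucugu
miR-540-3p: aGGUCAGAggucgauccugg
miR-136-5p: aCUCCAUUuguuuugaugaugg
miR-136-3p: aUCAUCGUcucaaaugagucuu
miR-127-5p: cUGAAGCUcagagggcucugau
miR-127-3p: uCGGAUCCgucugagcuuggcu
miR-431-5p: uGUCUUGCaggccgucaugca
miR-431-3p: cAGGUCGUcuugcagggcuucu
miR-434-5p: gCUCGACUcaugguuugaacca
miR-434-3p: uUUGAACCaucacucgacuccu

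All 10 members matched a RefSeq entry, and together they encode 20 mature sequences of 19 to 26 bases. The 20 sequences had 20 distinct seeds, so none of the members shared a seed with another. Among the 1738 mouse mature sequences compared, the seed of miR-673-5p occurred in 1 other, miR-6985-3p. That of miR-540-3p occurred in 1 other, miR-6915-5p. The complete reverse complement of 10 of the 20 sequences occurred in the Rtl1 transcript (GENCODE, 6358 bases). These were both arms of each of the 5 antisense miRNAs, and no mature sequence of an interval miRNA had such a site. The sites of the 2 antisense miRNAs that were called lower in NCs in at least 1 fit are shown as examples, in the direction of the Rtl1 transcript, with the bases that pair with the seed in capitals.
Rtl1 site of miR-136-5p, transcript bases 199 to 220: ccatcatcaaaacaAATGGAGt
Rtl1 site of miR-127-3p, transcript bases 2642 to 2663: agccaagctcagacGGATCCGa

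The deposited values were means of size-factor-normalized counts over the 3 libraries of a group. The reads of single libraries were recovered from these means for 528 of the 549 miRNAs detected in ESCs and for 581 of the 602 detected in NCs, including all 10 members. The libraries could not be tied to the replicate numbers of the labels, so they are named A, B and C in order of falling size factor, from 1.62 to 0.547 in ESCs and from 2.31 to 0.585 in NCs. The recovered reads came to between 85558 and 305142 per library. The 21 most abundant miRNAs of each group, with means over 8000, stayed unresolved, so the full depth of a library is not known. The resolved miRNAs held only 12.3% of the summed normalized counts in ESCs and 9.87% in NCs.

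Library C stood apart from A and B in both groups. Over 231 miRNAs with a mean of at least 20 in both groups, the log2 ratio of C to the mean of A and B had an SD of 1.34 (ESCs) and 1.16 (NCs), while that of A to B had one of 0.295 (ESCs) and 0.236 (NCs). Results are therefore given with group as the only term, with the library set (C against A and B) as a covariate, and without both C libraries. The set was read from the counts of these libraries, and no label gives it or ties the C libraries of the groups together. A p-value with the covariate measures only the spread that remains once the shared shift of library C is removed. The A and B libraries of a group also differed by more than sampling noise, with a chi-square per degree of freedom of 4.47 in ESCs and 4.01 in NCs, so no library was counted as a duplicate. These values cannot tell separate preparations of the same RNA from separate cultures. All 10 miRNAs of an ESC-state list (the mir-290 and mir-302 clusters) were lower in NCs and all 10 of a RA and neural list, which includes mir-10a and mir-9, were higher. The lists were chosen with earlier results of these data known, so this is no independent check of the labels. The second list also holds several gene copies each of mir-9 and mir-124. Of 6 markers of liver, muscle and blood, mir-1a-1 and mir-133a-1 were at 0 in both groups. The summed mean of the 6 was 927 in ESCs and 360 in NCs, nearly all of it mir-142, listed as a blood marker, with means of 924 and 357. The other blood marker listed, mir-451a, was low and went the other way, with means of 1.74 in ESCs and 2.27 in NCs. The presence of other cell types was not tested and is not read from mir-142 alone. Fewer cells of a type and less RNA per cell cannot be told apart in these bulk libraries.

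The 10 members made up 1.54% of the summed normalized counts in ESCs and 0.859% in NCs. Their own summed mean was 17753 in ESCs and 13771.5 in NCs. The totals include mir-10a, a Hox-cluster miRNA that RA induces, whose mean went from 2136 to 754551. With mir-10a left out of the totals, the members held 1.54% in ESCs and 1.62% in NCs. The cause of the fall in share was not tested. Among the members, mir-673, mir-431 and mir-434 held 88.6% of the members' summed mean in ESCs and 91.8% in NCs. The members' summed normalized counts in libraries A, B and C came to 15275, 14087 and 23897 for ESCs, and to 11791, 13275 and 16248 for NCs. The deeper ESC libraries were above the deeper NC libraries, and NC library C was above them all except ESC library C. The interval miRNAs summed to 4280, 3685 and 11484 in ESCs and to 2059, 2376 and 5188 in NCs, with overlapping ranges. Nearly all of this was mir-673, whose mean was 6412 of a summed 6483 in ESCs and 3164 of 3208 in NCs. The antisense miRNAs summed to 10995, 10403 and 12414 in ESCs and to 9732, 10899 and 11060 in NCs, with overlapping ranges.

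**Figure D1:**
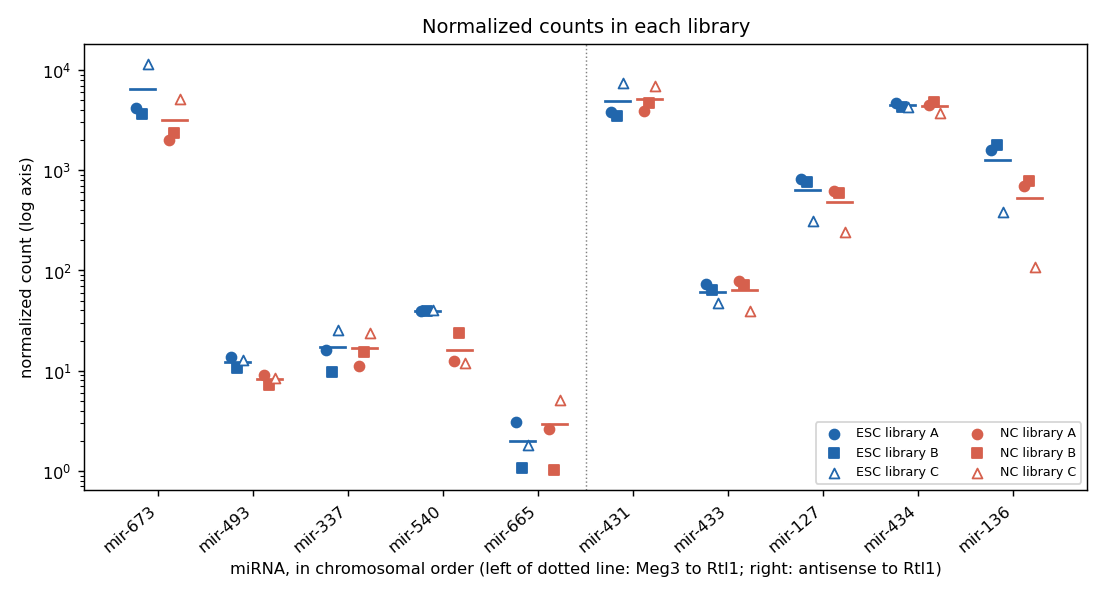
Normalized count (log axis) of each of the 10 miRNAs in each library, in chromosomal order, with ESCs in blue and NCs in red, filled symbols for libraries A and B, open triangles for library C and bars for the group means. mir-540 and mir-493 were higher in all ESC libraries than in all NC libraries, and for mir-673, mir-127 and mir-136 the shift between the groups was crossed by that of library C.

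Of the 10 members, 9 had at least 10 reads in 3 or more libraries and were tested with limma-voom, with Benjamini-Hochberg adjustment over all 316 miRNAs tested. With group as the only term, 1 of 9 members was called lower in NCs (5.70% of all miRNAs tested) and 0 of 9 were called higher (9.81%). That 1 was also the only member with an unadjusted p under 0.05 (25.6% of all miRNAs tested). With the library set as a covariate, 4 of 9 members were called lower (21.5% of all miRNAs tested) and 0 of 9 higher (23.4%), and 4 had an unadjusted p under 0.05 (50.6%). The 4 were mir-673, mir-540, mir-127 and mir-136, which are 2 interval and 2 antisense miRNAs. In the 2 deeper libraries of each group, limma-voom also called 4 of 9 lower (21.6% of the 324 miRNAs tested there) and 0 of 9 higher (28.1%). Leaving out 1 library left 0 members called with group only, except without NC library C, where 1 was called, and 2 to 4 with the covariate, the 2 being without NC library A. With a C library left out, the covariate fits the other C library exactly. The estimates of these covariate fits thus rest on libraries A and B alone and nearly repeat those of the deeper libraries. All 3 ESC libraries were above all 3 NC libraries for 2 of 9 members (14.2% of all miRNAs tested), and for 0 of 9 the NC libraries were all above (16.8%). An exact two-sided permutation test of 3 against 3 libraries cannot go below a p of 0.1. The median log2 difference, NC minus ESC, was -0.38 over the 9 members and -0.066 over all miRNAs tested. It was -0.74 over the 4 interval miRNAs tested and -0.036 over the 5 antisense miRNAs.

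**Figure D2:**
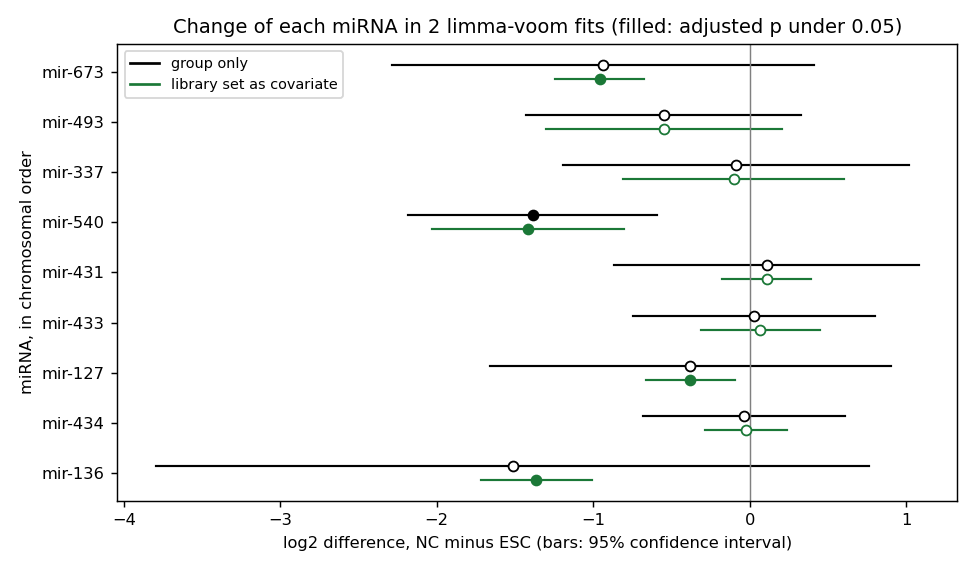
Log2 difference (NC minus ESC) of the 9 tested miRNAs in chromosomal order, with 95% confidence intervals from limma-voom, for the fit with group only (black) and with the library set as a covariate (green), where filled points had an adjusted p under 0.05. The estimates of the fits lie close together, from -1.52 to 0.11 with group only and from -1.41 to 0.11 with the covariate, while the intervals are narrower with the covariate.

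Among the interval miRNAs, mir-673 was the most abundant. Its normalized counts were 4208, 3624 and 11403 in ESC libraries A, B and C, and 2024, 2329 and 5138 in NC libraries A, B and C. Each NC library was below the ESC library of its kind, deeper or shallowest, but NC library C lay above both deeper ESC libraries, so the groups overlapped. The means were 6412 ± 4333 in ESCs and 3164 ± 1717 in NCs (SD, n = 3). Library C alone supplied 59.3% of the ESC mean and 54.1% of the NC mean. The log2 difference was -0.94 ± 0.57 (SE, adjusted p = 0.382, limma-voom) with group only. With the library set as a covariate it was -0.96 ± 0.13 (adjusted p = 0.000136), a 1.94-fold higher level in ESCs with a 95% confidence interval of 1.60 to 2.37. The deeper libraries gave a 1.80-fold and the C libraries a 2.22-fold higher level in ESCs. In the 6 covariate fits that each left out 1 library, mir-673 was called in 6, with adjusted p between 4.97e-05 and 0.00709. Those without a C library rest on libraries A and B alone. In the 6 group-only fits that each left out 1 library, mir-673 was called in 0, and the estimate ran from -0.40 without ESC library C to -1.37 without NC library C.

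mir-540 was the member whose ESC libraries lay closest together. In ESCs it had normalized counts of 39.5, 39.5 and 40.2, and in NCs of 12.6, 23.5 and 11.97. These came from 64, 37 and 22 reads in ESCs and from 29, 23 and 7 reads in NCs. All ESC libraries were above all NC libraries, and NC library B was the highest of its group. The means were 39.7 ± 0.421 and 16.0 ± 6.52 (SD, n = 3). The log2 difference was -1.39 ± 0.34 (SE, adjusted p = 0.0363, limma-voom) with group only, 2.62-fold higher in ESCs with an interval of 1.51 to 4.54. With the covariate it was -1.41 ± 0.27 (adjusted p = 0.00198). The group-only call was lost in 5 of the 6 fits that each left out 1 library, while the estimate stayed between -1.65 and -1.11. Leaving out ESC library A, B or C gave an adjusted p of 0.145, 0.0981 or 0.0513, and leaving out NC library A, B or C one of 0.281, 0.0572 or 0.0478, so it passed only in the last of these fits. With the covariate it passed in 5 of 6 such fits and missed without NC library A (adjusted p = 0.0599). The covariate fits without a C library rest on libraries A and B alone.

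mir-493, mir-337 and mir-665 were low. mir-493 had normalized counts of 13.6, 10.7 and 12.8 in ESCs and 9.10, 7.17 and 8.55 in NCs, from 22, 10 and 7 reads and from 21, 7 and 5 reads. All ESC libraries were above all NC libraries, but the log2 difference of -0.55 ± 0.37 (SE) had an adjusted p of 0.433 with group only and 0.227 with the covariate (limma-voom). mir-337 had 16.0, 9.60 and 25.6 in ESCs and 11.3, 15.4 and 23.9 in NCs, with overlapping groups. The log2 difference was -0.087 ± 0.47 (adjusted p = 0.924, limma-voom), with a 95% interval of -1.19 to 1.02 with group only and of -0.81 to 0.60 with the covariate. mir-665 had 5, 1 and 1 reads in ESCs and 6, 1 and 3 reads in NCs. It was below the filter on reads and was not tested.

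Among the antisense miRNAs, mir-136 had the largest estimated difference. Its normalized counts were 1605, 1793 and 384 in ESC libraries A, B and C, and 702, 784 and 108 in NC libraries A, B and C. Both deeper NC libraries were below both deeper ESC libraries but above ESC library C, so the groups overlapped. The means were 1261 ± 765 and 531 ± 369 (SD, n = 3). Library C was 4.43-fold below the mean of A and B in ESCs and 6.90-fold below it in NCs, the opposite direction to mir-673. The log2 difference was -1.52 ± 0.96 (SE, adjusted p = 0.401, limma-voom) with group only and -1.36 ± 0.16 (adjusted p = 5.7e-05) with the covariate, 2.57-fold higher in ESCs with an interval of 2.01 to 3.29. The deeper libraries gave a 2.29-fold and the C libraries a 3.56-fold higher level in ESCs. In the 6 covariate fits that each left out 1 library it was called in 6, with adjusted p between 2.45e-07 and 0.00195. Those without a C library rest on libraries A and B alone. The group-only estimate moved with the library left out, to -1.17, -1.02 or -2.28 without ESC library A, B or C, and to -1.92, -2.19 or -0.42 without NC library A, B or C, and it was called in 0 of these 6 fits.

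mir-127, a maternally expressed miRNA that acts on Rtl1 in the placenta, differed less. In ESCs it had normalized counts of 821, 756 and 314, and in NCs of 615, 599 and 241. The deeper ESC libraries were above the deeper NC libraries, and library C was the lowest in each group. The log2 difference was -0.38 in both fits, with an SE of 0.54 (adjusted p = 0.783, limma-voom) with group only and of 0.13 (adjusted p = 0.0335) with the covariate. With the covariate the level was 1.30-fold higher in ESCs, with an interval of 1.07 to 1.58. That call was kept in 2 of 6 covariate fits that each left out 1 library, those without a C library. These 2 rest on libraries A and B alone and are no separate support. The call was lost in each fit that left out a library A or B. Leaving out ESC library A, B or C gave an adjusted p of 0.0951, 0.0728 or 0.0348, and leaving out NC library A, B or C one of 0.229, 0.102 or 0.0353. The group-only estimate turned to 0.14 without NC library C.

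mir-431, mir-433 and mir-434 were not called in either fit. mir-431 had normalized counts of 3844, 3469 and 7346 in ESCs and 3868, 4632 and 6912 in NCs. Its groups overlapped, library C was the highest in each, and the log2 difference was 0.11 ± 0.13 (SE, adjusted p = 0.517, limma-voom) with the covariate, with an interval of -0.18 to 0.39. mir-433 had 73.4, 64.0 and 47.5 in ESCs and 78.9, 71.7 and 39.3 in NCs. Its log2 difference with the covariate was 0.069 ± 0.17 (adjusted p = 0.766), with an interval of -0.31 to 0.45. mir-434 had 4651, 4320 and 4322 in ESCs, beside 4468, 4812 and 3760 in NCs. It was the member with the most even counts over the 6 libraries. Its log2 difference with the covariate was -0.026 ± 0.12 (adjusted p = 0.873), with an interval of -0.29 to 0.24. For mir-431 and mir-434 these intervals do not contain the differences estimated for mir-673 and mir-136 in the same fit. With group only, mir-431 was at 0.11 and mir-434 at -0.036. The group-only intervals of mir-673 (-2.29 to 0.41) and mir-136 (-3.80 to 0.77) contained both values. No test compared these miRNAs with each other.

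The log2 differences are relative to the size factors of the libraries. Scaling the deposited means to equal totals multiplied all NC means by 1 factor, equal to -0.48 on the log2 scale, and totals that left out mir-10a gave a factor of 0.44. The members moved by about these amounts, and by less where the pseudocount of 1 weighed on low counts. A difference within this range changes its sign by construction, and a larger one keeps it, except at low counts, where the shift was smaller. mir-665, with few reads, had 0.050 under the first scaling and 0.73 under the second, and kept its sign. From the first scaling to the second, mir-127 went from -0.85 to 0.061, mir-431 from -0.40 to 0.51, mir-433 from -0.43 to 0.47, mir-434 from -0.50 to 0.41 and mir-337 from -0.46 to 0.40, so no direction can be given for these 5 apart from a choice of scale. The values were -1.49 and -0.58 for mir-673, -0.94 and -0.13 for mir-493, -1.70 and -0.84 for mir-540, and -1.72 and -0.81 for mir-136.

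A ratio of 2 miRNAs within a library does not depend on any size factor. Relative to mir-434, mir-136 had 34.5%, 41.5% and 8.88% as many reads in ESC libraries A, B and C, and 15.7%, 16.3% and 2.86% in the NC libraries. The ratio was 2.37-fold higher in ESCs in the deeper libraries and 3.10-fold in the C libraries. mir-673 had 90.5%, 83.9% and 264% of the mir-434 reads in ESCs, and 45.3%, 48.4% and 137% in NCs, which is 1.86-fold higher in ESCs in the deeper and 1.93-fold in the C libraries. For both miRNAs the shift between ESCs and NCs was thus present in either kind of library. Library C moved the ratio up for mir-673 and down for mir-136. The C comparison sets a single library against a single library. mir-434 had the most even counts of the members over these same libraries, so the ratios follow the normalized counts closely. mir-127 had 17.7%, 17.5% and 7.27% in ESCs and 13.8%, 12.4% and 6.41% in NCs. mir-540 had 0.848%, 0.914% and 0.930% in ESCs and 0.281%, 0.489% and 0.318% in NCs, without overlap. mir-431 had 82.7%, 80.3% and 170% in ESCs, against 86.6%, 96.3% and 184% in NCs. Its ratio was thereby higher in NCs within each kind of library. Such ratios show unequal change of a pair of miRNAs, not which of them changed.

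**Figure D3:**
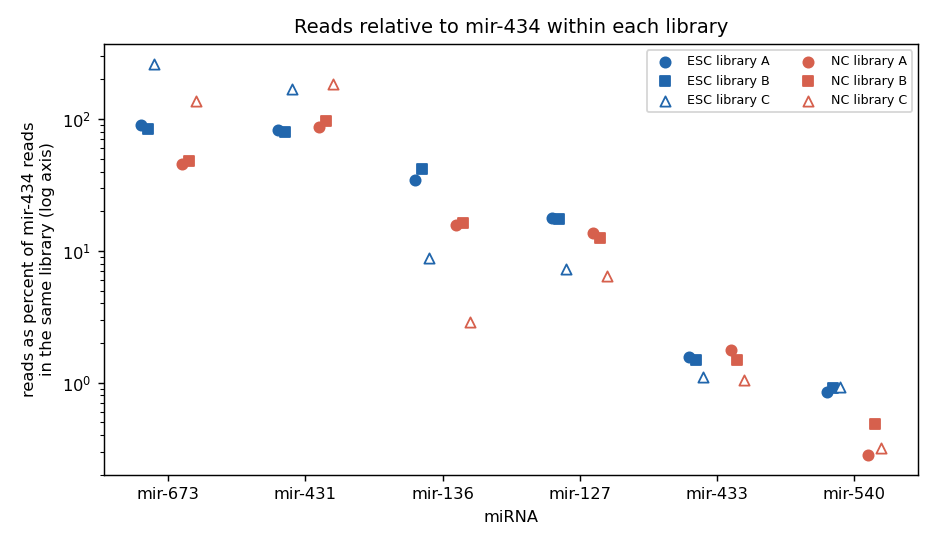
Reads of 6 miRNAs as a percentage of the mir-434 reads of the same library (log axis), with ESCs in blue, NCs in red, filled symbols for libraries A and B and open triangles for library C. mir-673, mir-136, mir-127 and mir-540 had lower ratios in NCs than in ESCs within the deeper libraries and within the C libraries, and mir-431 had higher ones.

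The members did not vary alike over the libraries. In library C, mir-673, mir-493, mir-337 and mir-431 were above the mean of A and B in both groups, and mir-433, mir-127, mir-434 and mir-136 were below it in both groups. For mir-673 the ratio of C to that mean was 2.91 in ESCs and 2.36 in NCs. Neighbours inside the same Rtl1 exon thus lay on opposite sides, with mir-431 above and mir-127 and mir-136 below. Over the 6 libraries, the log2 normalized counts of mir-127 and mir-136 had a Pearson r of 0.96 and those of mir-127 and mir-431 one of -0.95. These 6 points share the contrast between library C and the others, so the coefficients describe that contrast and carry no test. The same split was seen over the whole table, where the log2 deviations of library C in ESCs and in NCs had a Pearson r of 0.853 and a Spearman rho of 0.889 over 231 miRNAs. The cause of the difference of library C was not tested.

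**Figure D4:**
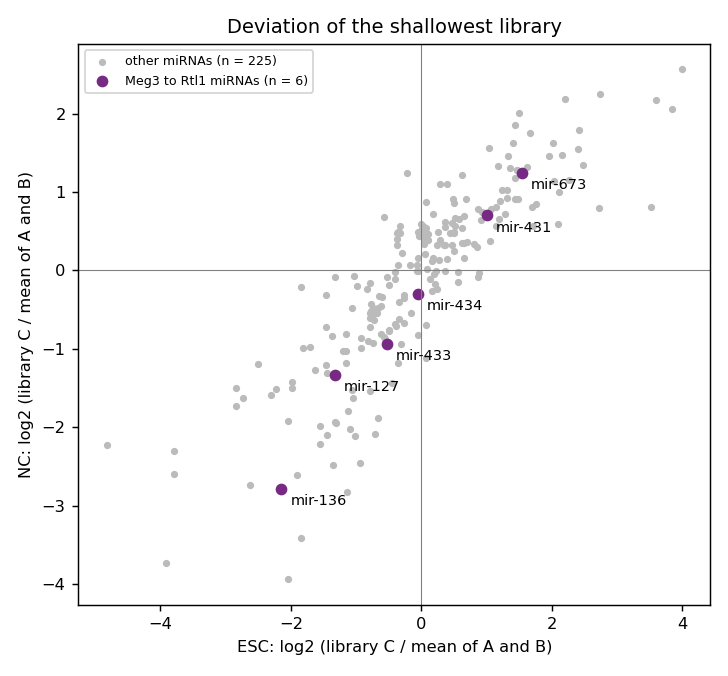
Log2 ratio of library C to the mean of libraries A and B in ESCs (horizontal axis) and NCs (vertical axis) for 231 miRNAs with a mean of at least 20 in both groups, with the 6 members among them in purple. mir-673 and mir-431 lie in the upper right and mir-136 and mir-127 in the lower left, along the trend of the other miRNAs.

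The 5 other miRNAs whose log2 normalized counts over the 6 libraries were most like the summed members were mir-150 (Pearson r = 0.984), mir-323 (0.983), mir-497 (0.983), mir-467d (0.974) and mir-196a-2 (0.972). Of these, mir-323 belongs to the distal part of the same domain, with 37.6, 29.9 and 146 in ESCs and 25.1, 29.7 and 54.7 in NCs. mir-150, a lymphocyte miRNA, had 1154, 1028 and 13159 in ESCs and 347, 371 and 1611 in NCs. In these, as in the summed members, ESC library C was the highest of the 6 libraries. The sum was mostly mir-673, mir-431 and mir-434, so likeness to it is not likeness to every member. mir-127 and mir-136 were instead lowest in library C of each group. These coefficients carry no test.

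Beyond Rtl1, the domain holds a larger miRNA array around Rian and Mirg. Of 42 listed distal miRNAs, 41 were in the table and 28 were tested. With group only, limma-voom called 1 of 28 lower in NCs (5.70% of all miRNAs tested) and 1 higher (9.81%). With the library set as a covariate it called 8 of 28 lower (21.5% of all miRNAs tested) and 1 higher (23.4%). Of the 9 tested members, 4 were lower and 0 higher in that fit. The median log2 difference was -0.20 over the distal miRNAs with group only, beside -0.38 for the members. Whether the distal and proximal miRNAs differed was not tested. The distal miRNA called lower was mir-329, with 348, 305 and 342 in ESCs and 145, 138 and 164 in NCs. Its log2 difference was -1.15 ± 0.22 (SE, adjusted p = 0.0145, limma-voom). The C libraries lay within or close to the range of the others of their group, and the difference was -1.15 with the covariate as well. The one called higher was mir-412, with 14.2, 12.8 and 16.4 in ESCs and 35.5, 46.1 and 47.9 in NCs (log2 difference 1.51 ± 0.32, adjusted p = 0.0231). The most abundant distal miRNAs were mir-541, with deposited means of 128072 in ESCs and 80291 in NCs, mir-411, with 82080 and 49383, and mir-134, with 4484 and 3995. Single libraries were not resolved for mir-541 and mir-411, so these have no replicate error.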

How the data were processed

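The deposited values were signal means per group, made by the authors by dividing the read counts of each miRNA gene by DESeq size factors (mm10, per the submitters' notes) and averaging 3 libraries. The aligner was not given in the sources used here. The authors' fold changes and p-values in the same table were not used. Reads per library were recovered by finding the whole-number counts that give each mean to 10 decimals, for means up to 8000. The 6 size factors found were checked against those recomputed from the recovered reads (largest relative difference 2.28e-13). miRNAs with at least 10 reads in 3 libraries were tested with limma 3.58.1 (voom, R 4.3.3), deposited size factors, Benjamini-Hochberg adjustment and a threshold of 0.05. Medians of means used a pseudocount of 1. Recovery and fits were checked on simulated data. Alternatives were other filters, scalings, limma-trend and left-out libraries. The test with the library set as a covariate in left-out fits and in limma-trend was chosen after seeing the data. The members and lists were chosen with earlier results of these data known. All 10 members are named, with the distal miRNAs of smallest adjusted p and highest mean, and the 5 most like the summed members.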

Additional observations from a re-analysis of the deposited data

How the results depend on the processing

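Of 9 tested members, 1 was called lower in NCs with group only. The count was 4 with the library set as a covariate, 4 in the deeper libraries, 4 by limma-trend with the covariate, and 0 both without a filter (10 tested) and with 10 reads in every library (6 tested). Without a filter mir-540 was at -1.38 (adjusted p = 0.0895, limma-voom), and under the stricter filter it was not tested. Over all miRNAs tested, those called lower were 18 of 316 with group only and 68 of 316 with the covariate. They were 70 of 324 in the deeper libraries and 58 of 316 by limma-trend with the covariate. Without a filter they were 11 of 610, and under the stricter filter 12 of 225. Leaving out 1 library gave 0 to 1 members with group only and 2, 3 or 4 with the covariate. Over all miRNAs it gave 6 to 20 with group only and 50 to 73 with the covariate. For distal miRNAs called lower (1) the values were 8, 7, 7 and 0 without a filter, and 0 to 7 with a library left out. For those called higher (1) they were 4 in the deeper libraries, 0 under both filters, and 0, 1, 2 or 4 with a library left out. Of all miRNAs, 91 of 324 were called higher in the deeper libraries, 25 of 610 unfiltered and 18 of 225 under the stricter filter. With a library left out, 10 to 32 were called higher with group only and 61 to 92 with the covariate. Small differences turned: mir-337 to 0.021 and mir-433 to -0.00058 by limma-trend with or without the covariate, mir-433 to -0.075 with totals of resolved reads, and mir-434 to 0.042 in the deeper libraries. With group only and a library left out, mir-127 ranged from -0.90 to 0.14, mir-337 from -0.38 to 0.29, mir-431 from -0.13 to 0.46, mir-433 from -0.17 to 0.23 and mir-434 from -0.11 to 0.067. In such fits with the covariate, mir-337 turned to 0.14 (without ESC library A) and 0.091 (without NC library A), mir-433 to -0.025 when ESC library B and to -0.035 when NC library A was left out, and mir-434 to 0.047 and 0.046 (without either C library). The cause of these turns was not tested. Over all miRNAs, 31 were called higher and 18 lower, against 27 and 24 with totals of resolved reads. No paired analysis was possible because no replicate number could be tied to a recovered library. The full depth of the libraries is not known, and mir-665 had too few reads to be tested.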

Other observations

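Other miRNAs of the same stretch were low. mir-770, which is hosted by Meg3, had normalized counts of 15.4, 17.1 and 45.7 in ESCs and 12.1, 13.3 and 51.3 in NCs. Library C was the highest in each group, and the log2 difference was -0.29 ± 0.61 (SE, adjusted p = 0.846, limma-voom). mir-3070a had 1 read in each C library and 0 in the others. mir-3544, which overlaps mir-337 on the opposite strand, had 0 reads in each ESC library and 1, 2 and 2 reads in the NC libraries.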
